A study of Homo sapiens with 12 samples.

Results

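The kinases examined here are the Polo-like kinases PLK1, PLK2 and PLK3, Aurora A (AURKA) with its activator Bora (BORA), the centrosomal kinase NEK2, and MASTL, the human Greatwall kinase. The 7 genes were chosen by name, and their members were all probe sets annotated to 1 of these genes alone. This gave 12 of the 54675 probe sets on the array, none of which was shared with another gene. Of the 12 probe sets, 10 passed the filter on low values, a log2 signal of at least 5 on at least 2 arrays, and these covered all 7 genes among the 9130 genes that passed it. The other 2, one of AURKA and one of PLK3, stayed near 3.0 and near 2.2 on the DMSO arrays and are described no further. Where several probe sets of a gene passed, the one with the highest mean signal stood for the gene, and the others are given beside it.

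HCT116 cells are an established line from a human colorectal carcinoma. Every culture was first stopped at the start of S phase by 2 thymidine blocks in series. Cells stayed in 2 mM thymidine for 19 h, in normal medium for 9 h, and in thymidine again for 16 h. After the wash, one arm was kept in 0.1 mg/ml nocodazole, which blocks microtubule growth and so arrests cells in mitosis, and was sampled hourly between 7 and 10 h. The other arm was kept in DMSO, the vehicle, and was sampled at 0, 2, 4 and 6 h and then hourly until 10 h. RNA of each of the 12 conditions was hybridized to 1 Affymetrix U133 Plus 2.0 array. No condition had a replicate, so the p-values below rest on how far adjacent hours scatter about the mean, curve or difference that was fitted. Fewer cells in a phase and less RNA per cell cannot be told apart in these bulk cultures.

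Entry into mitosis is driven by the cyclin B kinase CDK1, and the genes examined here act around that switch. Bora, once phosphorylated by cyclin-dependent kinase, lets Aurora A phosphorylate and activate PLK1, and PLK1 in turn drives CDK1 activation, centrosome maturation, spindle assembly, cohesin removal from chromosome arms and cytokinesis. NEK2 releases the linker between the centrosomes, and MASTL keeps CDK1 substrates phosphorylated by inhibiting the phosphatase PP2A-B55 through ENSA and ARPP19. PLK2 and PLK3 are the stress-responsive members of the Polo family, with roles in centriole duplication, S phase entry and DNA damage signalling. PLK1, Aurora A, Bora and NEK2 are all degraded through ubiquitin during or at the end of mitosis, a loss of protein that a measurement of mRNA does not see.

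Genes with high mRNA in G2 and mitosis often carry in their promoters a CHR element, of which TTTGAA and TTTAAA are the common words, and CCAAT boxes, so these letters were searched in the promoters of the members. RefSeq sequences on GRCh38.p14 were available for 6 of the 7 members, from 250 bases before to 50 bases after the gene start. The 250 upstream bases of 4 members are shown, PLK1, BORA and NEK2 because their mRNA rose after release and MASTL because its mRNA did not. Sequences run 5′ to 3′ on the strand of the gene, and capitals mark both CHR words and the CCAAT box on either strand, so that the CCAAT box of the other strand reads ATTGG. PLK1 lies at chr16:23678639-23678888 on the plus strand, BORA at chr13:72727673-72727922 on the plus strand, NEK2 at chr1:211675622-211675871 on the minus strand and MASTL at chr10:27155102-27155351 on the plus strand.
PLK1: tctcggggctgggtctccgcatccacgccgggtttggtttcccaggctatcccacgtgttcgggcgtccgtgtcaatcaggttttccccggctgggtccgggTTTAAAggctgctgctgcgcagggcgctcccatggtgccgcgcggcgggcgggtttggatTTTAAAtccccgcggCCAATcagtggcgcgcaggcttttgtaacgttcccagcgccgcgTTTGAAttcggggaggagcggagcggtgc
BORA: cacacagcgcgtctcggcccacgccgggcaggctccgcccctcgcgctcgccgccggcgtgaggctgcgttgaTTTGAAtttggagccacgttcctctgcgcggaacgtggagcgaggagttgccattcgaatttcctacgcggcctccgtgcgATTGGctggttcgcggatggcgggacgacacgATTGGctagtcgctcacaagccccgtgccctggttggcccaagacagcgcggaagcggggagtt
NEK2: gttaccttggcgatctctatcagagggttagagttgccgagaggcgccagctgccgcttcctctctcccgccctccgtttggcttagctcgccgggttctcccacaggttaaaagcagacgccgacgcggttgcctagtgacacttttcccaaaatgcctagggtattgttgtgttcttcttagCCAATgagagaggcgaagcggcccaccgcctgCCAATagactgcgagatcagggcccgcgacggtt
MASTL: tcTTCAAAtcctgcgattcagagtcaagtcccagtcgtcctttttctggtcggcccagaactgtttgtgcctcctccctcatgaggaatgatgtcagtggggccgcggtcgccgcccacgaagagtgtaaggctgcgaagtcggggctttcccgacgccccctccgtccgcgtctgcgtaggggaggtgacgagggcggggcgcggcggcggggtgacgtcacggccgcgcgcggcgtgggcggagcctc
In PLK1, TTTGAA began 29 bases before the gene start, CCAAT 73 bases before it, and TTTAAA 88 and 148 bases before it. BORA held TTTGAA at 177 bases and CCAAT, on the other strand, at 64 and 96 bases before the start. NEK2 held CCAAT at 34 and 66 bases before the start and neither CHR word. MASTL held TTTGAA on the other strand 248 bases before the start and again 3 bases into the transcript, just past the stretch shown, and no CCAAT. The windows of PLK2 and PLK3 held neither word and no CCAAT. Over 27305 promoters of the same length, 24.3% held at least 1 of the CHR words and 35.7% held CCAAT on either strand, so each match alone was common. The E2F words TTTCCCGC and TTTGGCGC were found in none of the 6 promoters and in 2.31% of all promoters.

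The arrays differed in ways that bear on every comparison below. The median log2 signal over the kept probe sets was 8.90, 8.99, 8.39 and 8.28 with nocodazole at 7, 8, 9 and 10 h, against 9.08, 8.80, 8.87 and 9.13 with DMSO at the same hours, and it was 8.59 to 8.80 with DMSO at 0 to 6 h. The 3 control probe sets for 18S ribosomal RNA averaged 8.32 on the DMSO 4 h array and 3.55 to 4.05 on the other 11 arrays. The difference between the 3′ and 5′ control probe sets of GAPDH was 0.054 on the DMSO 4 h array and between -0.088 and 0.082 on the other 11. Of 7 colorectal epithelial markers, 5 (including EPCAM, 13.94 to 14.36) were at or above 5 on all 12 arrays, while VIL1 and CDX2 never reached it. All 3 leukocyte and all 3 endothelial markers and 4 of 5 fibroblast markers never reached it either, COL1A1 being the exception at 7.75 to 8.60.

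**Figure D1:**
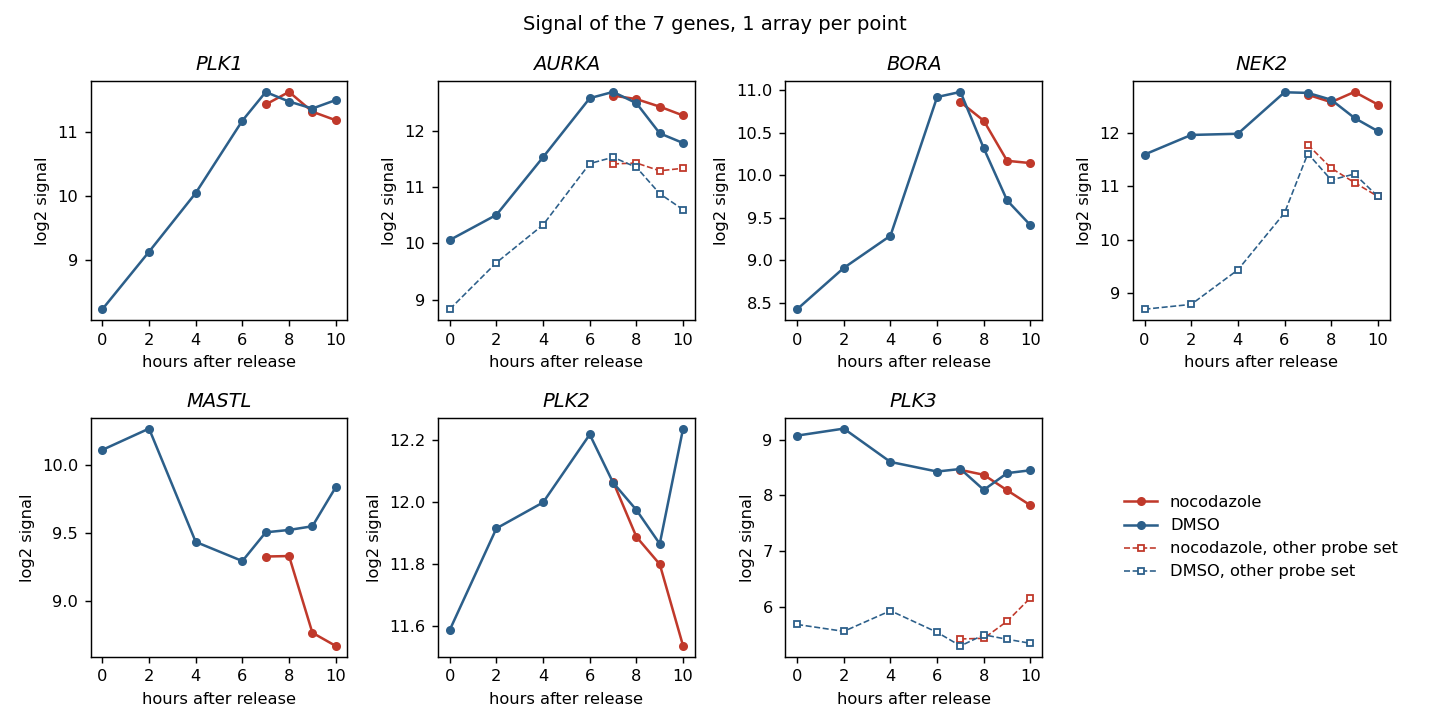
Log2 signal of every kept probe set of the 7 genes (vertical axis) against hours after release (horizontal axis), with 1 point per array, nocodazole and DMSO as separate lines and no error bars because each condition had 1 array. PLK1, AURKA, BORA and NEK2 climb to 6 or 7 h, whereas MASTL and the brighter PLK3 probe set are highest at 2 h.

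The first question was how the mRNA of each gene moved over the 10 h after release from the block with DMSO. PLK1, AURKA, BORA and NEK2 were all higher in the window of 6 to 8 h than in that of 0 to 4 h, and MASTL, PLK2 and PLK3 did not pass the test. PLK1, the Polo kinase of mitosis, had log2 signals of 8.22, 9.12, 10.04, 11.18, 11.62, 11.48, 11.37 and 11.50 at 0, 2, 4 and 6 h and at each hour from 7 to 10 h. Its signal went up at every step to 7 h, where it was 3.40 above 0 h, or 10.6-fold on the linear scale, and it then stayed on a plateau. The mean was 11.43 ± 0.23 at 6 to 8 h and 9.13 ± 0.91 at 0 to 4 h (SD, n = 3 times each), a difference of 2.30 (SE 0.38, limma adjusted p = 0.0220). Only 0.153% of the 9130 genes had a larger difference.

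AURKA, the kinase that activates PLK1 and builds the spindle poles, had 10.06, 10.51, 11.53, 12.58, 12.70, 12.49, 11.96 and 11.79 at the same hours. It peaked at 7 h like PLK1, 2.64 above 0 h (6.22-fold), but then came down at each later hour. The mean was 12.59 ± 0.10 at 6 to 8 h and 10.70 ± 0.76 at 0 to 4 h (SD, n = 3 times each), a difference of 1.89 (SE 0.31, adjusted p = 0.0220). The other AURKA probe set moved in the same way, from its lowest signal of 8.83 at 0 h up to 11.53 at 7 h, with a difference of 1.83 between the windows (SE 0.33, adjusted p = 0.0250).

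BORA, the cofactor of Aurora A, had 8.43, 8.91, 9.29, 10.92, 10.98, 10.31, 9.70 and 9.41. Most of its rise fell between 4 and 6 h, and by 10 h it was close to its 4 h signal. The mean was 10.74 ± 0.37 at 6 to 8 h and 8.88 ± 0.43 at 0 to 4 h (SD, n = 3 times each), a difference of 1.86 (SE 0.25, adjusted p = 0.0184).

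NEK2 had 11.59, 11.96, 11.98, 12.75, 12.74, 12.61, 12.27 and 12.03 in its brightest probe set. This is a rise of 1.16 to a peak at 6 h, followed by a return at 10 h to the signals of 2 and 4 h. The mean was 12.70 ± 0.08 at 6 to 8 h and 11.84 ± 0.22 at 0 to 4 h (SD, n = 3 times each), a difference of 0.86 (SE 0.13, adjusted p = 0.0195). The second NEK2 probe set gave 8.70, 8.79, 9.44, 10.50, 11.61, 11.12, 11.23 and 10.81. It showed a larger and later rise, of 2.90 to a peak at 7 h, and a window difference of 2.10 (SE 0.31, adjusted p = 0.0192). The probe sets of NEK2 thus shared the direction of the rise but not its size or timing.

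In these 4 genes every array of 6 to 8 h was above every array of 0 to 4 h, which held for 20.8% of all genes. Called higher were 4 of the 7 members, against 5.41% of all genes tested, and called lower were 0, against 0.635%. The median difference over all genes was 0.06. The count depends on single arrays, for all genes as for the members. Without the array of 2, 7 or 8 h none of the 7 passed, and 0% of all genes did. Without that of 4 h, which had the high 18S signal, 6 members passed, against 6.0% of all genes. On leaving out any one array, the difference stayed between 1.84 and 2.75 for PLK1, 1.57 and 2.31 for AURKA, 1.63 and 2.07 for BORA, and 0.74 and 0.93 for NEK2.

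MASTL, PLK2 and PLK3 followed other courses. MASTL had 10.11, 10.27, 9.43, 9.29, 9.51, 9.52, 9.55 and 9.84, highest at 0 and 2 h and lowest at 6 h. Its mean was 9.44 ± 0.13 at 6 to 8 h and 9.94 ± 0.44 at 0 to 4 h (SD, n = 3 times each), a difference of -0.50 (SE 0.22, adjusted p = 0.201) with windows that overlapped. PLK3 had 9.08, 9.20, 8.60, 8.43, 8.48, 8.10, 8.40 and 8.45, again highest at 2 h and lowest at 8 h. All 3 arrays of 6 to 8 h were below all 3 of 0 to 4 h, which held for 9.98% of genes, and the difference was -0.62 (SE 0.19, adjusted p = 0.0918). Without the 4 h array both genes passed the test, MASTL at -0.75 (adjusted p = 0.0400) and PLK3 at -0.80 (adjusted p = 0.0413). Scaling also moved these calls: PLK3 was called lower after quantile normalization (-0.88, adjusted p = 0.0253), and both genes after median centring (MASTL -0.77, adjusted p = 0.0374, and PLK3 -0.90, adjusted p = 0.0233) and with narrower windows. The second kept probe set of PLK3 was dim, between 5.29 and 5.93 with DMSO, and was highest at 4 h. Its difference between the windows had the same sign, -0.28 (SE 0.17, adjusted p = 0.312). PLK2, the member tied to centriole duplication, had 11.59, 11.92, 11.999, 12.22, 12.06, 11.97, 11.87 and 12.24. Its whole range was 0.65, and its windows overlapped, with a difference of 0.25 (SE 0.15, adjusted p = 0.326) that turned to -0.02 with each array centred on its median.

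A natural cubic spline over the 8 DMSO times tested the whole course instead of a pair of windows. PLK1 (fitted range 3.41, adjusted p = 0.000451), AURKA (2.69, adjusted p = 0.00133), BORA (2.39, adjusted p = 0.00535) and NEK2 (1.11, adjusted p = 0.00594) passed, 4 of 7 members against 21.8% of all genes. PLK3 (0.89, adjusted p = 0.0529), MASTL (0.87, adjusted p = 0.0956) and PLK2 (0.54, adjusted p = 0.143) did not. After quantile normalization of the arrays all 7 members passed, against 40.1% of all genes. After median centring 6 did, all but PLK2, against 44.7% of all genes. PLK3 also passed as deposited with the filter at 7 (adjusted p = 0.0351), with a spline of 2 degrees of freedom (adjusted p = 0.0422) and without the 7 h array (adjusted p = 0.0360).

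**Figure D2:**
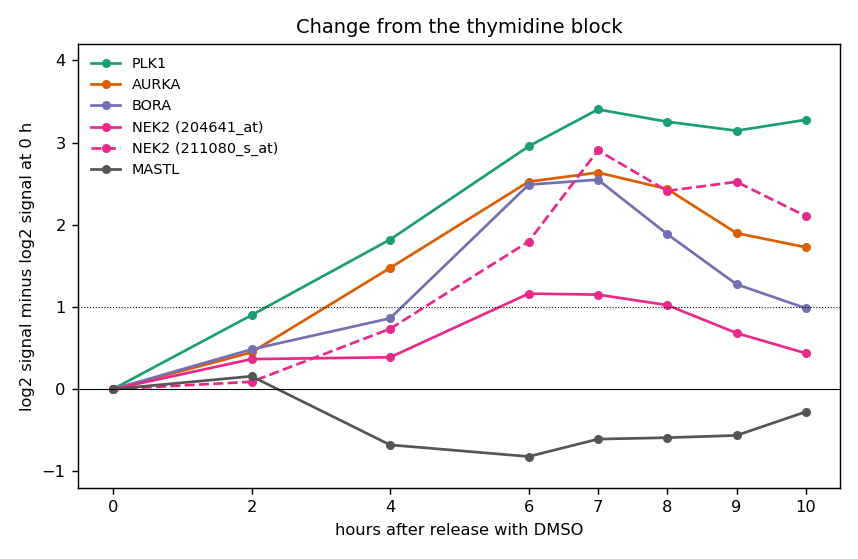
Change of the log2 signal from DMSO 0 h (vertical axis) against hours with DMSO (horizontal axis), 1 array per point. Lines are the probe sets that stand for PLK1, AURKA, BORA and MASTL, and both kept probe sets of NEK2. PLK1 and AURKA pass 1 log2 unit at 4 h, BORA and both NEK2 probe sets at 6 h, and MASTL never does.

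The hour at which the 4 genes first passed a fixed step above 0 h is given as a description, since no test compared them. PLK1 and AURKA were first at least 1 log2 unit above 0 h at 4 h, and BORA and NEK2 at 6 h, in both NEK2 probe sets. This step was most of the whole rise of the brighter NEK2 probe set, 1.16, and a smaller part of the others. MASTL, PLK2 and PLK3 never reached this level, which 16.1% of all genes reached at some hour. By linear interpolation of the log2 signals, the midpoint of the rise came at 3.74 h for PLK1 and 3.69 h for AURKA. It was 3.56 h in the other AURKA probe set. It came at 4.51 h for BORA and 4.50 h for NEK2, with 5.35 h in the other NEK2 probe set. These midpoints are a description, since sampling was 2 h apart up to 6 h and no error can be given. All 4 genes stood at their highest at 7 h, except for the brighter NEK2 probe set, which had 12.75 at 6 h and 12.74 at 7 h. For all genes 7 h was the highest DMSO hour in 16.6% and 10 h, the brightest array, in 38.6%.

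The order of signals over the 12 arrays is given as a description of how close the arrays lie. Steps in it are set beside the residual SD of the DMSO spline, which limma moderates with the spread of other genes. For PLK1, 8 of the 11 steps between neighbours in that order were smaller than this SD, 0.17. All 9 arrays from 6 h on lay within 0.45 of each other, and the largest step, 1.13, separated DMSO 6 h and DMSO 4 h. For AURKA 7 of 11 steps were below the residual SD of 0.18, for BORA 6 of 11 below 0.29, for NEK2 8 of 11 below 0.14, for MASTL 8 of 11 below 0.21, for PLK2 9 of 11 below 0.14 and for PLK3 8 of 11 below 0.20.

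The next question was how much of each rise was gone by 9 and 10 h with DMSO. Shares of the rise are taken here in log2 units, and the same drop is a larger share of the rise on the linear scale. PLK1 was 0.13 below its peak at 10 h and had lost 3.70% of its rise. AURKA had lost 34.5% of its rise in each of its probe sets, after a drop of 0.91 in the brighter one. BORA had lost 61.4% after a drop of 1.56. NEK2 had lost 62.4%, after a drop of 0.73, in the brighter probe set and 27.5% in the other. After quantile normalization, which takes away the higher median of the 10 h array, these shares were 9.48% for PLK1, 45.8% for AURKA, 79.0% for BORA and 84.4% and 38.1% for NEK2. The order of PLK1, AURKA and BORA was the same on both scales.

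Between the windows of 9 to 10 h and 6 to 8 h, no gene of the 9130 passed limma at an adjusted p of 0.05 (0% called), and 470 had an unadjusted p below 0.05. BORA and NEK2, in its brighter probe set, were the 2 members among the 470. The spread in this test, as in that of the rise, was pooled over the DMSO windows of 0 to 4, 6 to 8 and 9 to 10 h. It thus includes the climb of the rising genes within 0 to 4 h, where the SD was 0.91 for PLK1 and 0.76 for AURKA. The mean of BORA was 9.56 at 9 to 10 h and 10.74 at 6 to 8 h, a difference of -1.18 (SE 0.28, adjusted p = 0.783), and 99.7% of genes had a larger value. The mean of NEK2 was 12.15 at 9 to 10 h and 12.70 at 6 to 8 h (-0.55, SE 0.15, adjusted p = 0.815), and that of AURKA was 11.87 and 12.59 (-0.72, SE 0.35, adjusted p = 0.912). The other NEK2 probe set averaged 11.02 at 9 to 10 h and 11.08 at 6 to 8 h, a difference of -0.058 (SE 0.34), and the mean of the NEK2 probe sets gave -0.30 (unadjusted p = 0.186), so the lower NEK2 signal rests on the brighter probe set. For AURKA, BORA and that NEK2 probe set both later arrays lay below all 3 earlier ones, which held for 7.37% of all genes. PLK1 averaged 11.43 in both windows (0.01, SE 0.43). MASTL was higher on both later arrays than on all 3 earlier ones (0.25, SE 0.25, adjusted p = 0.928), as were 9.75% of genes, whereas PLK2 (-0.03) and PLK3 (0.09) overlapped.

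Nocodazole arrests cells in mitosis, and the comparison at 7 to 10 h asked at which level of each mRNA this left them. AURKA, BORA and the brighter probe set of NEK2 had higher signals with nocodazole than with DMSO at both 9 and 10 h, whereas PLK1 lay close to DMSO and MASTL lay below it at every hour. PLK1 had 11.43, 11.63, 11.32 and 11.18 with nocodazole at 7, 8, 9 and 10 h, against 11.62, 11.48, 11.37 and 11.50 with DMSO. The groups overlapped, and the differences had no common sign. AURKA had 12.63, 12.57, 12.43 and 12.28 with nocodazole, against 12.70, 12.49, 11.96 and 11.79 with DMSO. The difference was -0.066 at 7 h, 0.073 at 8 h, 0.48 at 9 h and 0.49 at 10 h. In its other probe set it was 0.41 at 9 h and 0.74 at 10 h.

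BORA had 10.86, 10.64, 10.17 and 10.14 with nocodazole, against 10.98, 10.31, 9.70 and 9.41 with DMSO. It went down in both arms and was above DMSO from 8 h on, by 0.32, 0.46 and 0.73. NEK2 had 12.71, 12.57, 12.76 and 12.52 with nocodazole, against 12.74, 12.61, 12.27 and 12.03 with DMSO, in its brighter probe set. The nocodazole signals stayed between 12.52 and 12.76, and the difference was 0.49 at 9 h and 0.50 at 10 h. The other NEK2 probe set gave 11.77, 11.34, 11.07 and 10.81 with nocodazole, against 11.61, 11.12, 11.23 and 10.81 with DMSO. It went down in both arms, with differences of -0.16 at 9 h and 0.00 at 10 h, so the probe sets of NEK2 differed here as deposited. After quantile normalization the other probe set was above DMSO as well, by 0.036 at 9 h and 0.63 at 10 h.

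MASTL had 9.33, 9.33, 8.76 and 8.67 with nocodazole, against 9.51, 9.52, 9.55 and 9.84 with DMSO. All 4 nocodazole arrays were below all 4 DMSO arrays, as for 7.16% of genes, and the gap widened to -0.79 at 9 h and -1.17 at 10 h. PLK2 had 12.07, 11.89, 11.80 and 11.54 with nocodazole, against 12.06, 11.97, 11.87 and 12.24 with DMSO. It stood apart only at 10 h, by -0.70. PLK3 had 8.46, 8.37, 8.09 and 7.82 with nocodazole, against 8.48, 8.10, 8.40 and 8.45 with DMSO, while its dim probe set had 5.42, 5.43, 5.74 and 6.16 with nocodazole, against 5.29, 5.49, 5.41 and 5.34 with DMSO. As deposited, the brighter PLK3 probe set lay below DMSO at 9 and 10 h and the dim one above it. After quantile normalization both lay above DMSO at these hours, the brighter by 0.16 and 0.18 and the dim one by 0.57 and 1.38.

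**Figure D3:**
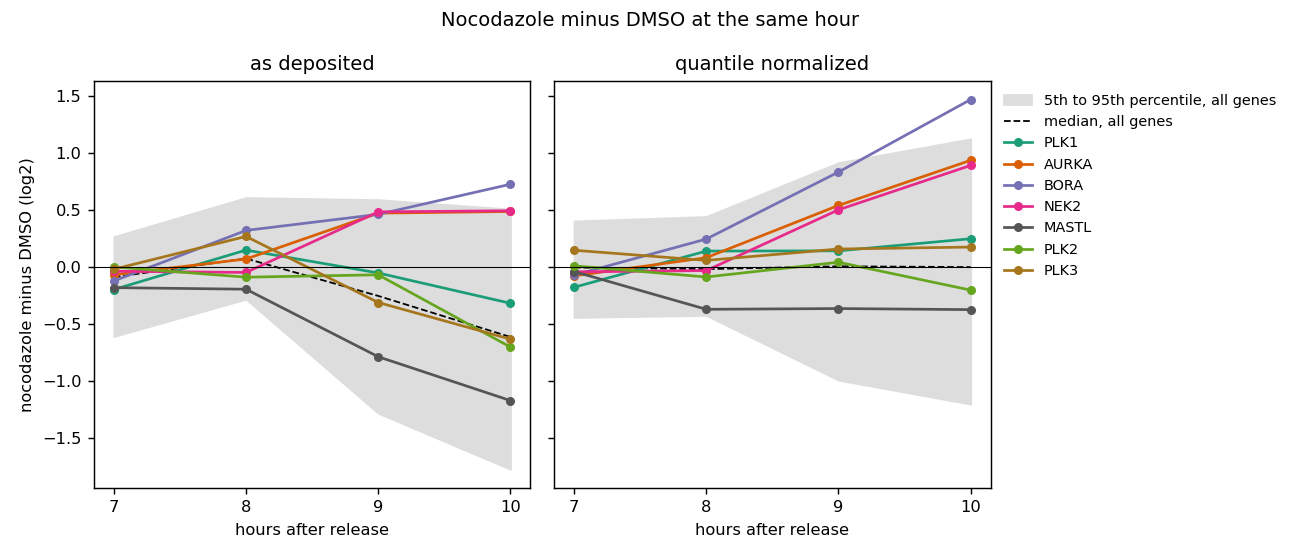
Nocodazole minus DMSO in log2 units (vertical axis) at each of 7, 8, 9 and 10 h (horizontal axis) for each gene as deposited and after quantile normalization, with the median of all 9130 genes, 1 array per condition. At 9 and 10 h AURKA, BORA and NEK2 lie above 0 while the median of all genes lies below it as deposited.

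The 9 and 10 h differences have to be read against the whole array. Over the 9130 genes the median difference between nocodazole and DMSO was -0.09, 0.08, -0.25 and -0.61 at 7, 8, 9 and 10 h, as the median signal of the nocodazole arrays dropped. Against this, 3.84% of genes had a larger difference than BORA at 10 h, 5.08% a larger one than NEK2, 5.14% a larger one than AURKA and 30.4% a larger one than PLK1. MASTL, PLK2 and PLK3 were inside the bulk, with 81.8%, 56.4% and 51.5% of genes above them. After quantile normalization the 10 h difference was 1.47 for BORA, 0.94 for AURKA, 0.89 for NEK2 and 0.25 for PLK1, against -0.37 for MASTL, -0.20 for PLK2 and 0.18 for PLK3. With each array centred on its median it was 1.58 for BORA, 1.34 for AURKA, 1.35 for NEK2, 0.54 for PLK1, -0.32 for MASTL, 0.15 for PLK2 and 0.22 for PLK3. At 10 h the sign was the same on these 3 scales for BORA, AURKA, NEK2 and MASTL, while PLK1 and PLK3 changed sign under both alternatives and PLK2 under centring.

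With time as a block, no gene passed limma at an adjusted p of 0.05 over 7 to 10 h (0% called), and 953 had an unadjusted p below 0.05, 1 member among them. That member was MASTL, whose mean was 9.02 ± 0.36 with nocodazole and 9.60 with DMSO (SD of the 4 nocodazole times), a difference of -0.58 (SE 0.23, adjusted p = 0.386). The differences were 0.35 for BORA (SE 0.18, adjusted p = 0.386), 0.24 for AURKA (SE 0.13, adjusted p = 0.386), 0.23 for NEK2 (SE 0.13, adjusted p = 0.387) and -0.10 for PLK1 (SE 0.13, adjusted p = 0.630). They were -0.21 for PLK2 (SE 0.15) and -0.17 for PLK3 (SE 0.21). The median over all genes was -0.22.

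An interaction asked whether the nocodazole difference at 9 and 10 h differed from that at 7 and 8 h. It was 0.53 for NEK2 (SE 0.20, adjusted p = 0.0826), 0.49 for BORA (SE 0.28, adjusted p = 0.219), 0.48 for AURKA (SE 0.20, adjusted p = 0.116) and -0.79 for MASTL (SE 0.31, adjusted p = 0.0938). It was -0.16 for PLK1, -0.34 for PLK2 and -0.60 for PLK3, and the median of all genes was -0.44. None of the 7 members passed as deposited, against 12.3% of all genes. An unadjusted p below 0.05 was found for 3 of them (AURKA, NEK2 and MASTL) and for 3215 of the 9130 genes. After quantile normalization AURKA (0.74, adjusted p = 0.0235), BORA (1.06, adjusted p = 0.0290) and NEK2 (0.73, adjusted p = 0.0226) passed, 3 of 7 against 7.88% of all genes. With each array centred on its median these same 3 genes passed, against 20.2% of all genes. In the other NEK2 probe set the change was -0.27 as deposited.

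The last comparison set the late nocodazole arrays at 9 and 10 h against the DMSO arrays of 6 to 8 h, which hold the DMSO peaks of PLK1, AURKA, BORA and NEK2, to ask whether this level was kept in arrest. PLK1 averaged 11.25 with nocodazole and 11.43 with DMSO, a difference of -0.18 (SE 0.15, adjusted p = 0.388). NEK2 averaged 12.64 with nocodazole and 12.70 with DMSO, which differ by -0.06 (SE 0.10, adjusted p = 0.654), and AURKA 12.35 with nocodazole and 12.59 with DMSO, which differ by -0.24 (SE 0.10, adjusted p = 0.101). BORA averaged 10.15 with nocodazole and 10.74 with DMSO, which differ by -0.58 (SE 0.22, adjusted p = 0.0808). These 4 genes did not pass the test as deposited, and some signs depended on the scale. After quantile normalization the differences of PLK1 and NEK2 turned positive, and no member passed. With each array centred on its median those of PLK1, AURKA and NEK2 were positive, and NEK2 passed, against 17.7% of all genes.

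MASTL fell to a mean of 8.72 with nocodazole, against 9.44 with DMSO, a difference of -0.72 (SE 0.14, adjusted p = 0.0175), and PLK2 to 11.67 with nocodazole, against 12.09 with DMSO, a difference of -0.42 (SE 0.12, adjusted p = 0.0448). PLK3 averaged 7.96 with nocodazole and 8.33 with DMSO, which differ by -0.38 (SE 0.19, adjusted p = 0.155). Called lower were 2 of 7 members, against 33.5% of all genes, and the median over all genes was -0.37, so the share of members called was no larger than that of all genes. Both late nocodazole arrays were below all 3 DMSO arrays for 5 of 7 members (AURKA, BORA, MASTL, PLK2 and PLK3), against 60.3% of all genes. Neither call held after quantile normalization, in which 9.27% of all genes were called and MASTL was at -0.22 and PLK2 at -0.16, and PLK2 turned to 0.15 with each array centred on its median. Without the DMSO 7 h array no member passed, against 9.59% of all genes. Leaving out either nocodazole array left 1 array in that group, so only differences are given for those fits. With any one array left out, the difference lay between -0.80 and -0.68 for MASTL and between -0.55 and -0.29 for PLK2.

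**Figure D4:**
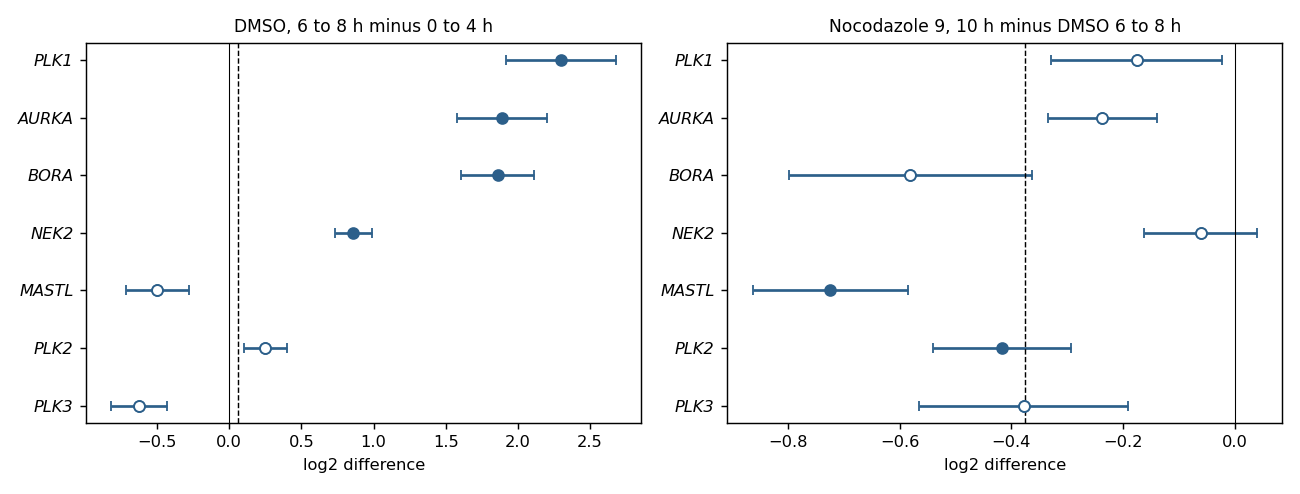
Log2 difference (horizontal axis) of each of the 7 genes in the comparisons of windows and of treatments, with bars of 1 standard error and the median of all genes as a line. The rise with DMSO separates PLK1, AURKA, BORA and NEK2, at 0.86 to 2.30, from MASTL, PLK2 and PLK3, at -0.62 to 0.25.

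Genes whose pattern was most like each member are given by Pearson's r over the 12 arrays, which share the rise and the dimmer late nocodazole arrays, so r is only a description. PLK1 was closest to CCNB2 (0.993), FAM216A (0.989) and TPX2 (0.985), and AURKA to KNSTRN (0.993), ASPM (0.989) and HMMR (0.988). CCNB2 encodes a mitotic cyclin and TPX2 the spindle factor that activates Aurora A. BORA was closest to CDCA8 (0.978), KIF14 (0.978) and GTSE1 (0.968), and NEK2 to ANLN (0.968), DEPDC1 (0.963) and GAS2L3 (0.955). CDCA8 is a subunit of the Aurora B complex, and KIF14 and ANLN act in cytokinesis. MASTL was closest to ANKH (0.976), PREPL (0.965) and FMR1 (0.964), PLK2 to ORMDL2 (0.939), TMEM203 (0.932) and UTP3 (0.926), and PLK3 to BIRC2 (0.963), GLUD1 (0.959) and OSER1 (0.956). Among the members, r was 0.945 for AURKA and PLK1, 0.943 for AURKA and BORA, 0.954 for BORA and NEK2, 0.880 for MASTL and PLK3, and -0.791 for PLK1 and PLK3.

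Genes that work with these kinases were counted in 8 lists, which share 5 genes, and the lists were drawn up with results of these arrays known. Their counts stand beside the 5.41% of all genes called higher and the 0.635% called lower in this comparison, and beside a median of 0.06 over all genes. In the DMSO window of 6 to 8 h, set against that of 0 to 4 h, 6 of 11 tested Aurora A partners and relatives rose (median difference 0.73), among them CKAP5, a microtubule polymerase (1.47), HMMR, a spindle pole protein (1.12), CDCA8 (1.05) and TPX2 (0.87). Of the Polo kinase partners and targets 4 of 14 rose (median 0.58), including the cytokinesis kinesin KIF20A (1.96) and the checkpoint kinase BUB1 (1.08). Of the mitotic entry switch 4 of 13 rose (median 0.29), with CCNB2 at 1.26, the CDK1-activating phosphatase CDC25B at 0.87 and the CDK1 subunit CKS2 at 0.81. In the list of NEK kinases and centrosome separation 1 of 10 rose (median 0.00216), which was NEK6 (1.93), a NEK kinase that acts in the mitotic spindle. In the Greatwall and PP2A-B55 list 1 of 9 rose (median 0.06), which was the B55 subunit gene PPP2R2A (0.60). Of the degradation genes 2 of 17 rose (median 0.27), the anaphase activator CDC20 (1.43) and the ubiquitin-conjugating enzyme UBE2S (0.57), and of the other mitotic kinases 2 of 14 (median 0.12), BUB1 and TLK1 (0.49). Of the p53 and stress targets grouped with PLK2 and PLK3, 0 of 17 rose and 2 fell (median -0.51), which were the transcription factor JUN (-2.05) and the CDK inhibitor CDKN1A (-1.08).

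No gene of the 8 lists passed in the comparisons of 9 to 10 h with 6 to 8 h or of nocodazole with DMSO. In the late nocodazole arrays against DMSO at 6 to 8 h, 7 of 14 Polo partners fell, including the APC/C inhibitor FBXO5 (-3.19), a protein whose destruction PLK1 triggers, and CDC25C (-1.44), the CDK1-activating phosphatase that PLK1 phosphorylates. Also lower were 4 of 13 genes of the entry switch, among them CDK1 (-1.55) and WEE1 (-0.90), and 4 of 10 of the NEK list, 4 of 17 of the degradation list, 3 of 14 other kinases, 2 of 11 Aurora A partners and 2 of 9 of the Greatwall list. Of the p53 and stress list 6 of 17 fell and 1 rose, the exception being JUN (2.72). These counts stand beside the 33.5% of all genes called lower and the 2.94% called higher in that comparison.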

How the data were processed

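RNA of HCT116 cells, 8 samples with DMSO and 4 with nocodazole, was hybridized to Affymetrix U133 Plus 2.0 arrays. The authors deposited log2 signals per probe set, computed with GC-RMA per their methods, with no version given. The values, which span what log2 signals do, do not settle whether a quantile step was included. All 12 columns were used. Probe sets were named through the platform annotation: 41097 had 1 symbol, 1801 several and 11777 none. The filter kept probe sets with 1 symbol that reached a log2 signal of 5 on 2 or more arrays (15030 probe sets, 9130 genes), and the probe set with the highest mean stood for a gene. Pearson's r between arrays was 0.938 to 0.995. Precision is limited by having few arrays.

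Differences were tested over all 9130 genes with limma 3.58.1 in R 4.3.3 (intensity trend, Benjamini-Hochberg adjusted p under 0.05, two-sided) for windows of hours, a natural cubic spline of the DMSO hours, nocodazole against DMSO with hour as a block, and the change of that difference. All fits were tested on simulated data, with independent noise about flat levels and known steps in 200 genes. Of steps of 1 log2 unit, 28% were recovered for the change of the nocodazole difference and 75% to 95% in the other comparisons. No simulated gene climbed within a window, and no simulated array was shifted as a whole. The noise had the residual SD of the DMSO spline. For all 7 members this SD was below that in the test of the rise (0.17 against 0.47 for PLK1). These shares may thus not hold for the real arrays, in particular for the rising genes. Python 3.11.15, numpy 2.4.6, pandas 2.3.3 and matplotlib 3.10.9 handled values and plots. The members, the gene lists and the tests were chosen with earlier results of these data known. Named genes were the 7 members with every probe set, at most 4 genes per list with the largest difference among those that passed, and the 3 genes with the highest r to each member. Alternatives were other filters (none, or 7), quantile normalization, median centring, the mean of or all probe sets, no trend, a shared spread, other windows or spline, no hour block, and each array or hour left out in turn. The other probe sets of NEK2 and AURKA and separate comparisons of the hours 7 and 8 and of the hours 9 and 10 were added after seeing the data. Flow cytometry was not analysed here.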

Additional observations from a re-analysis of the deposited data

Results flagged for a closer look

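A test of the interaction set the nocodazole difference at 9 and 10 h against that at 7 and 8 h, and 8 of 105 list entries passed it (7.62%, limma, Benjamini-Hochberg adjusted p), against 12.3% of all genes, while the median of all genes was -0.44. FBXO5, the APC/C inhibitor targeted by PLK1, changed by -2.51 (adjusted p = 0.0139). The phosphatase gene CDC25A changed by -1.01 (adjusted p = 0.0481) and the APC/C subunit gene ANAPC4 by -1.15 (adjusted p = 0.0402). CKS2, a CDK1 subunit, was the only one of the 8 to change upwards, by 0.59 (adjusted p = 0.0441). Among the stress and p53 targets, JUN changed by -1.33 (adjusted p = 0.0241), its difference being 2.20 at 9 and 10 h and 3.53 at 7 and 8 h. ATF3 changed by -1.15 (adjusted p = 0.0307), GADD45A by -1.07 (adjusted p = 0.0272) and PPM1D, the p53 phosphatase WIP1, by -1.05 (adjusted p = 0.0321).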

How the results depend on the processing

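Of 707 alternatives for single members, 602 kept direction and side of the threshold, 36 became stronger, 30 weaker and 39 reversed, 1 of these where the reported value had passed (PLK2 in late nocodazole against DMSO at 6 to 8 h). Percentages beside the counts are the share of all genes called in either direction. The rise with DMSO was called for 4 members (6.05%) and for 2 with no filter on low values (0.329%). It was called for 5 after quantile normalization (9.68%) or with a shared spread (12.4%), with PLK3 added, lower. After centring (14.4%) or with narrower windows (14.9%) it was called for 6, with MASTL and PLK3 added, lower. With an array left out it was called for 0 to 6 (0% to 13.9%). The course was called for 4 (21.8%), for 7 after quantile normalization (40.1%) and for 6 after centring (44.7%). It was called for 5 with the filter at 7 (29.8%) or a spline of 2 degrees of freedom (20.2%), with PLK3 added. With an array left out it was called for 2 to 5 (9.44% to 24.3%). For the fall the count was 0 throughout. For nocodazole against DMSO it was 0, also with any hour left out, but, with 2 arrays against 2 at 9 and 10 h alone, 1 (MASTL, against 36.8% of all genes) and, after quantile normalization, 3 (AURKA, BORA, NEK2, against 32.7%). For the change of that difference it was 0, 2 with no filter (50.9% of all genes called), 3 after quantile normalization (7.88%) or centring (20.2%), and 0 to 5 with an hour left out (5 without 9 h, where 44.3% of all genes were called). For late nocodazole against DMSO at 6 to 8 h it was 2 (36.5%), 3 with no filter (BORA added, adjusted p = 0.0495, with 64.3% of all genes called) and 0 after quantile normalization (9.27%). It was 1 after centring (NEK2, 17.7%). It was also 1, MASTL, with all probe sets (27.5% of probe sets), no trend (33.2%) or a shared spread (42.5%). With a DMSO array left out it was 0 to 2 (9.59% to 41.1%). The cause was not tested.

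Signs turned mostly with scaling. After quantile normalization the fall was -0.066 for PLK1 and -0.0057 for PLK3, nocodazole against DMSO 0.091 and 0.14, its change 0.21 and 0.064, and late nocodazole 0.13 and 0.16, with NEK2 at 0.10. After centring the rise was -0.023 for PLK2, and the fall -0.10 for PLK1 and -0.011 for PLK3. Nocodazole against DMSO was then 0.23, 0.12 and 0.16 for PLK1, PLK2 and PLK3, its change 0.51, 0.33 and 0.073, and late nocodazole 0.39, 0.15 and 0.18, with AURKA at 0.32 and NEK2 at 0.50. Narrower windows gave a fall of -0.051 for PLK1 and 0.22 for PLK2. The mean of probe sets gave PLK3 0.065 for nocodazole and 0.064 for late nocodazole, and the other NEK2 probe set a change of -0.27. At 7 and 8 h alone NEK2 was at -0.040 and PLK3 at 0.13, and at 9 and 10 h alone after quantile normalization PLK1 at 0.20 and PLK3 at 0.17. With an array or hour left out, the fall was -0.12 to 0.11 for PLK1, -0.22 to 0.15 for PLK2 and -0.026 to 0.16 for PLK3, late nocodazole for NEK2 -0.18 to 0.057, and the change for PLK1 -0.33 to 0.013. The labels give no replicate numbers to pair by. Nocodazole and DMSO were paired by hour, and without the hour block the count of members called was 0 as well.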
